A study of Homo sapiens with 4 samples.

Results

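The heat shock protein and DNAJ chaperone genes were examined for H3K9la, lactylation of lysine 9 on histone H3, in KYSE30 cells, an established line of human oesophageal squamous cell carcinoma. They were taken as the RefSeq GRCh38.p14 protein-coding genes whose symbols begin with HSPA, HSPB, HSPD, HSPE, HSPH, HSP90, DNAJA, DNAJB or DNAJC followed by a number, which gave 73 of 19970 such genes of the autosomes and chromosome X. There were 4 samples, namely H3K9la ChIP and input for the arm sg3 and H3K9la ChIP and input for the arm V2. The meaning of these arm names is not stated in the labels, and the title of the series presents SIRT3, a sirtuin, as an eraser of the mark. Both arms were KYSE30 cells, with no other treatment in the labels, and IgG, which the design text names as a control, was not analysed here. The peak list of V2 is attached to its input sample and was taken as that of the arm. Each arm contributed 1 peak list and no replicate, so each difference below is one between 2 libraries and no test was made.

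Chaperones bind unfolded or partly folded proteins and keep them from aggregating. HSPA proteins of the Hsp70 family work in cycles of ATP hydrolysis that DNAJ proteins start through their J domain and that nucleotide exchange factors such as the HSPH and HSPA4 proteins end, HSP90 proteins act late on folding clients, HSPB proteins hold aggregates in check without ATP, and the HSPD and HSPE proteins form the chaperonin of the mitochondrion. Heat shock factor 1 switches on the stress-inducible members through heat shock elements in their promoters, and the unfolded protein response switches on those of the endoplasmic reticulum.

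A peak record is 1 line of an arm's list, with a start, an end and a summit. Its fold enrichment is the ratio of ChIP signal to background at the summit and its -log10 q is the strength of the call after correction for multiple testing. Both are the authors' values from MACS2, and they rank records within 1 list only. A gene is called marked where any base of a record lay within 1 kb of either of its outer ends, and it is in sg3 only, or in V2 only, where this held for that list and not for the other. The lists held 56875 records in sg3 and 40332 records in V2, and the read depth behind them is unknown. The squamous label of the cells was checked on 10 epithelial markers, of which sg3 marked 10 and V2 marked 8 (80.0%). Of 25 markers of liver, neuron, blood, muscle, fibroblast and endothelium, sg3 marked 8 (32.0%) and V2 marked 6 (24.0%). Of all protein-coding genes, sg3 marked 47.2% and V2 marked 28.7%, so the V2 share of the 25 lay near that of all genes. The 6 were SYT1, RBFOX3, CD3D, TNNT2, COL1A1 and COL1A2, all in both lists.

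The 7 stretches printed here show where the mark lay against promoter sequence. They are RefSeq sequences of build GRCh38.p14, all upstream of the listed start, written 5′ to 3′ on the strand of the named gene. The first is the whole of the gap of 104 bases between the divergent starts of HSPD1 and HSPE1, which the sg3 record covered in full and the V2 record covered over 55 bases. In HSPA8, DNAJB6, HSPA1A and HSPA1B the capitals mark heat shock elements, searched as GAANNTTC and TTCNNGAA on both strands, where N is any base. HSPA8 and DNAJB6 have overlapping pairs, which make 3 inverted units in a row. In HSPA5 and HSP90B1 the capitals mark the ends of the ER stress element, a CCAAT box followed at a fixed distance by CCACG on either strand.
HSPD1 to HSPE1 gap, chr2:197500275-197500378, minus strand: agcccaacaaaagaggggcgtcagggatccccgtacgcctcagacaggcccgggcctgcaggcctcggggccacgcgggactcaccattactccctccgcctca
HSPA8 upstream, chr11:123062137-123062386, minus strand: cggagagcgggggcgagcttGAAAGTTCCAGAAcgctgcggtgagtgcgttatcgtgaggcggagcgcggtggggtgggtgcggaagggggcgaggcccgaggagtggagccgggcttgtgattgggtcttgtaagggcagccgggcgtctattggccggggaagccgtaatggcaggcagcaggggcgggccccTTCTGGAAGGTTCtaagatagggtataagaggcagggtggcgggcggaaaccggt
DNAJB6 upstream, chr7:157336754-157337003, plus strand: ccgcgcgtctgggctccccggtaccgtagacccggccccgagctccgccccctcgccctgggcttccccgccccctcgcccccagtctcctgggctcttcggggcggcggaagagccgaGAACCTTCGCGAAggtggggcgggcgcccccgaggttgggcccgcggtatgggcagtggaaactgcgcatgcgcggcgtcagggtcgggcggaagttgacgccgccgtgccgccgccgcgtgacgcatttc
HSPA1A upstream, chr6:31815293-31815542, plus strand: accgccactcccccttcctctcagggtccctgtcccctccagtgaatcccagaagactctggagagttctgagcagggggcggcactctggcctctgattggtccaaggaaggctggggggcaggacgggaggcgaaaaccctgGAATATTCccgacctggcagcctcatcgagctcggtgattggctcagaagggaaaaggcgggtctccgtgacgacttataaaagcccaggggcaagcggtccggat
HSPA1B upstream, chr6:31827488-31827737, plus strand: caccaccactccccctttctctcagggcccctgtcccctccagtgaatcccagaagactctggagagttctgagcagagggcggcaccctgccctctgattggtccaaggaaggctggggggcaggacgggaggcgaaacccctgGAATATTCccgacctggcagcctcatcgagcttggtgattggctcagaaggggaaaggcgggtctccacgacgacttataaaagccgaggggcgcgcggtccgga
HSPA5 upstream, chr9:125241344-125241593, minus strand: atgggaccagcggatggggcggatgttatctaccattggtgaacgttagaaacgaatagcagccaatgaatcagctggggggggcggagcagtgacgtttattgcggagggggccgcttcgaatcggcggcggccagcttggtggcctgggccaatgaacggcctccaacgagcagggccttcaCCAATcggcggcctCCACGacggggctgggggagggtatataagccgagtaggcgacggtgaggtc
HSP90B1 upstream, chr12:103930160-103930409, plus strand: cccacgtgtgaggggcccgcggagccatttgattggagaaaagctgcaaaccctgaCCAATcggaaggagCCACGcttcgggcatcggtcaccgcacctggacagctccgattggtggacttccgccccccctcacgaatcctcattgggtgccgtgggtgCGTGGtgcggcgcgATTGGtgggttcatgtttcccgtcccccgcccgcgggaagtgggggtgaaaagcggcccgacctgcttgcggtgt

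HSPA8 was marked in both arms, by an upstream record alone, unlike most members in both lists. HSPA1A and HSPA1B are near-identical copies of which only HSPA1B had a record, and HSPA5 and HSP90B1 were marked in sg3 alone. The stretches of HSPA1A, HSPA1B, HSPA5 and HSP90B1 were chosen after the values were seen, as was DNAJB6. Of the 250 bases printed for each of these genes, records covered 96 bases of DNAJB6 in sg3 and 0 in V2, and 0 bases of HSPA8, HSPA1A, HSPA1B, HSPA5 and HSP90B1 in either list.

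Chaperone genes were marked more often than protein-coding genes as a whole in both arms, and none was marked in V2 alone. The sg3 list marked 49 of 73, which is 67.1% (95% Clopper-Pearson interval 55.1 to 77.7%), against 47.2% of all protein-coding genes. The V2 list marked 35 of 73, which is 47.9% (36.1 to 60.0%), against 28.7% of all protein-coding genes. These intervals cover counting error only, and they treat genes that share a record as separate. Without the 2 readthrough genes, sg3 marked 47 of 71 (66.2%) and V2 marked 33 of 71 (46.5%). Both lists marked 35 chaperone genes, against a background of 28.2% of all genes, and neither marked 24, against 52.3% of all genes. Marked in sg3 only were 14, or 19.2% (10.9 to 30.1%), close to the 18.9% of all genes. Marked in V2 only were 0 of 73, an upper limit of 4.11% (from 3 counts), while 0.501% of all genes were in that class. Among the genes marked in either list, 28.6% of the chaperone genes (16.6 to 43.3%) were in sg3 only, and 39.7% of all genes (38.7 to 40.7%).

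**Figure D1:**
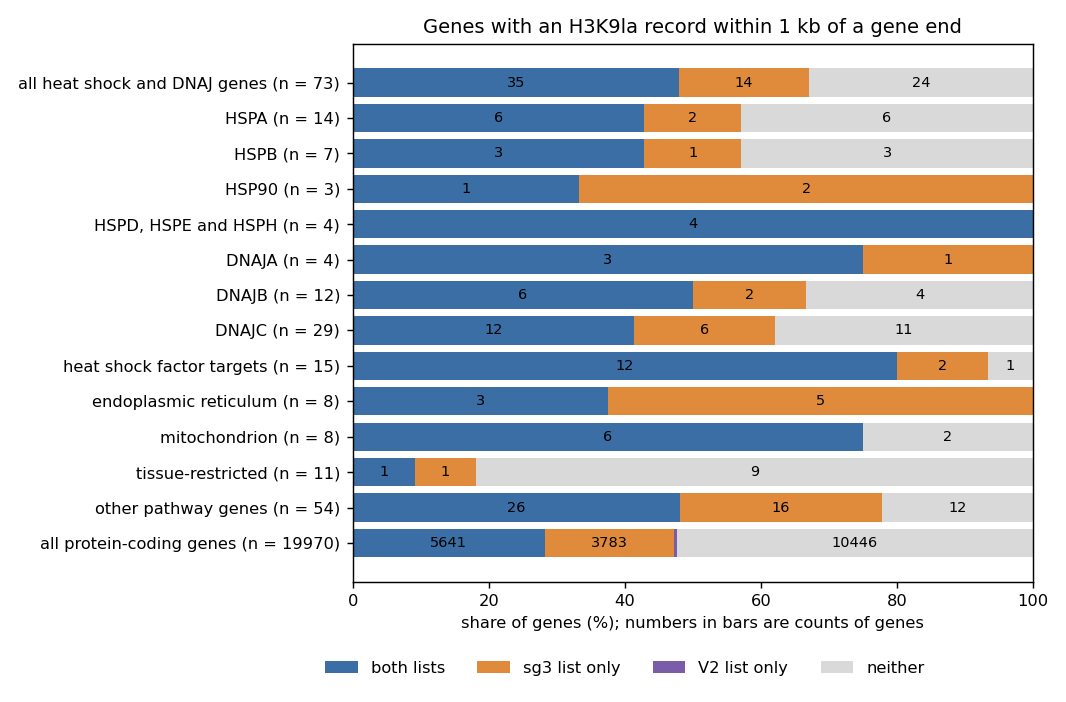
Share of genes (%) with an H3K9la record within 1 kb of a gene end in both lists, in sg3 only, in V2 only or in neither, for all 73 chaperone genes, their families, 4 functional groups, other pathway genes and all protein-coding genes; numbers in the bars are counts of genes. The endoplasmic reticulum group has 5 of 8 genes in sg3 only and the mitochondrial group 0 of 8, an order that turns with a fold enrichment of at least 4, and the tissue-restricted group is mostly unmarked.

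The records of chaperone genes were of about the same strength and width as other gene-end records of their list. In sg3 the 71 chaperone records had a median fold enrichment of 5.72 and a median -log10 q of 23.3, against 5.16 and 20.6 over all 11538 gene-end records. In V2 the 42 chaperone records had medians of 4.95 and 17.3, against 4.61 and 16.3 over all 6686 gene-end records. Median widths were 619 bases in sg3, against 684 bases over all its gene-end records, and 542.5 bases in V2, against 569 bases. No chaperone gene-end record reached 5 kb. For the 71 in sg3 a count of 0 has an upper limit of 4.23%, and 1.68% of all sg3 gene-end records were that wide.

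Of the 71 sg3 records 41 overlapped a V2 record, which is 57.7% (45.4 to 69.4%), while all 42 V2 records overlapped an sg3 record. Over all gene-end records the shared portions were 53.3% in sg3 and 96.7% in V2. The 41 shared sg3 records had a median fold enrichment of 6.33 and a median width of 710 bases, and the 30 without a V2 partner had 4.41 and 501 bases. Summits of shared pairs lay a median of 42 bases apart, and 33 of the 41 pairs (80.5%) within 100 bases, against 80.0% of shared gene-end records as a whole.

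Records sat mostly at the start of chaperone genes and seldom at the other end. The strand, and with it the start, was known for 66 of the 73. In sg3, 46 of these (69.7%) had a record at the start and 4 (6.06%) at the other end, and in V2 33 (50%) had one at the start and 3 (4.55%) at the other end. Over the 15812 genes with a known strand the shares were 46.5% and 8.16% in sg3, and 27.7% and 4.5% in V2. The genes with a record at both ends were in part short ones, such as HSPB1 and HSPB3, where 1 record can reach both. The summit of the strongest start record lay a median of 291 bases downstream of the start in sg3, with 38 of 45 genes downstream, and 234 bases downstream in V2, with 24 of 32 genes downstream. Over all genes the medians were 274 bases in sg3 and 275.5 bases in V2. A few well-marked genes had their strongest record upstream instead, among them HSPA9, HSPA8, DNAJA3 and DNAJB4.

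**Figure D2:**
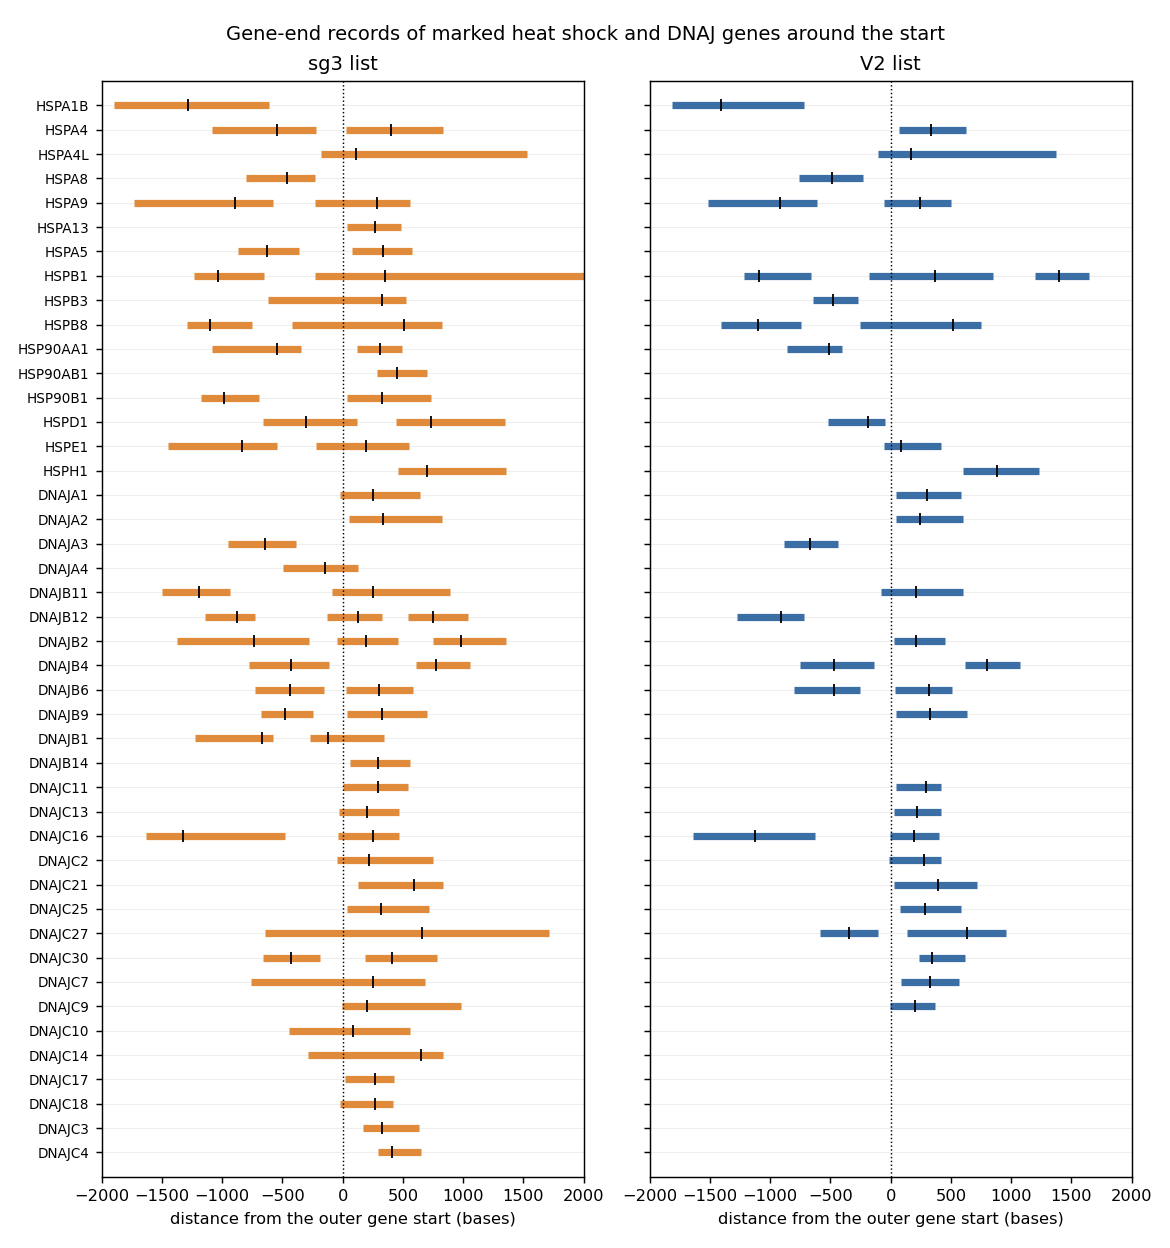
Gene-end records (thick lines) and their summits (ticks) around the outer start of each marked chaperone gene with a known strand, in bases, in sg3 on the left and V2 on the right; readthrough genes are left out and the dotted line is the outer gene start. Most records begin near the start and run into the gene, HSPA8, DNAJA3 and HSPA1B have records only upstream, and an empty V2 row marks a gene in sg3 only.

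The HSPA genes encode the Hsp70 proteins and their relatives. Of the 14, sg3 marked 8 (57.1%, against 47.2% of all protein-coding genes) and V2 marked 6 (42.9%, against 28.7%). HSPA9 is the Hsp70 of the mitochondrion, and it carried the strongest record of any chaperone gene end in each list. Its sg3 record ran from 138575982 to 138577129 on chromosome 5, at a fold enrichment of 13.37 and -log10 q of 109.8, and its V2 record from 138576013 to 138576913, with 12.47 and 76.0. Both lay upstream of the gene, at least 581 bases from it in sg3 and 612 bases in V2. A weaker record lay over the start in each list, with a -log10 q of 39.6 in sg3 and 23.2 in V2.

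HSPA8, the constitutive Hsp70 of the cytosol, had a single record in each list, with almost the same borders. The record ran from 123062688 to 123063266 on chromosome 11 in sg3, at a fold enrichment of 11.74 and -log10 q of 56.2. In V2 it ran from 123062688 to 123063220, with 9.86 and 37.7. It stopped 226 bases short of the outer end of the gene in both, and the printed HSPA8 stretch, whose start is 326 bases inside that end, lay outside it. The gene body held no record in either list.

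HSPA4 and HSPA4L, nucleotide exchange factors of the Hsp110 type, were marked at their starts in both arms. HSPA4L had a -log10 q of 43.1 in sg3 and 18.1 in V2. HSPA4 had a shared record just inside its start, with 43.5 in sg3 and 28.3 in V2, and a second sg3 record 218 bases upstream of the gene that had no V2 partner. With a fold enrichment of 10.28 and -log10 q of 42.4, from 133050932 to 133051795 on chromosome 5, that was the strongest unshared record at any chaperone gene end. HSPA14, which acts with DNAJC2 at the ribosome, had records with a -log10 q of 52.5 in sg3 and 30.8 in V2, which also lay within 1 kb of an end of CDNF and MSANTD7.

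The 3 HSPA1 genes on chromosome 6 encode stress-inducible Hsp70 (HSPA1A and HSPA1B) and a testis-enriched form (HSPA1L). HSPA1A and HSPA1L were unmarked in both lists, and their nearest records were over 3 kb away, at 3505 bases in sg3 and 3525 bases in V2 for HSPA1A. HSPA1B was marked in both arms by a record upstream of its start, 610 bases away in sg3 (-log10 q 17.4) and 723 bases away in V2 (13.5). Further records of both lists lay between the genes, the strongest at 31823430 to 31825354 in sg3 (23.8) and at 31824199 to 31825254 in V2 (17.7). The promoter windows of HSPA1A and HSPA1B match at 277 of 299 aligned bases (92.6%), and how multi-mapping reads were handled is not stated in the labels, so the absence of a record over either gene is uncertain. The same holds for HSPA6, which has a near-identical neighbour copy, and for the body of HSPA8, which has pseudogenes. HSPD1, HSPE1 and HSP90AB1 have pseudogenes too. Records were called at each, and whether multi-mapping reads added to these records or took from them was not tested.

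HSPA5, the main Hsp70 of the endoplasmic reticulum, and HSPA13, a microsomal Hsp70-like protein, were marked in sg3 only. HSPA5 had an sg3 record just inside the gene, from 125240771 to 125241262 on chromosome 9, at a fold enrichment of 4.13 and -log10 q of 24.1, and another upstream with 15.5. The nearest V2 record lay 29300 bases away. HSPA13 had a -log10 q of 12.5 in sg3, and the nearest V2 record lay 151214 bases away. Not marked in either list, beside HSPA1A and HSPA1L, were HSPA2, HSPA6, HSPA12A and HSPA12B. HSPA2, an Hsp70 enriched in testis, did have records inside the gene, with a -log10 q of 58.5 in sg3 and 9.9 in V2. They lay within 1 kb of its only listed start, which is itself inside the gene.

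Among the 7 small heat shock proteins (HSPB), sg3 marked 4 (57.1%, against 47.2% of all genes) and V2 marked 3 (42.9%, against 28.7%). HSPB1, the heat-inducible small heat shock protein of many epithelia, lay under a record of 2358 bases in sg3 that covered the whole gene, at a fold enrichment of 5.73 and -log10 q of 40.5. V2 had separate records there, the strongest of 1037 bases with 3.74 and 17.2. HSPB8, which works with BAG3 in clearing misfolded proteins, had a fold enrichment of 13.33 and -log10 q of 44.2 in sg3, and 6.93 and 17.0 in V2. HSPB3, a small heat shock protein of muscle, was marked weakly in both, with 9.7 in sg3 and 12.1 in V2. Its sg3 record lay over the gene with its summit 329 bases downstream of the start, and its V2 record lay upstream with its summit at -475 bases. HSPB2, another muscle form, had a weak record of 5.2 in sg3 and none in V2. HSPB6, HSPB7 and HSPB9, found mainly in muscle or testis, were unmarked in both.

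All 3 HSP90 genes were marked in sg3, and HSP90AA1 was the one marked in V2 as well. The shares of all protein-coding genes were 47.2% in sg3 and 28.7% in V2. HSP90AA1 encodes the inducible Hsp90 of the cytosol. At its outer start sg3 had a record inside the gene with a -log10 q of 15.4 and no V2 partner, and an upstream record of 14.0, which V2 shared with 7.9. These outer records also lay within 1 kb of an end of WDR20. At the inner listed start of HSP90AA1, at 102087044 on chromosome 14, sg3 had records of which the strongest ran from 102087349 to 102088833 with 24.2, and V2 had none within 1 kb.

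HSP90AB1, the constitutive Hsp90 of the cytosol, and HSP90B1, the Hsp90 of the endoplasmic reticulum, were marked in sg3 only. For HSP90AB1 this rested on the outer start. There sg3 had a record with a -log10 q of 15.6, from 44246478 to 44246890 on chromosome 6, while at another listed start 907 bases inside, sg3 had 28.7 and V2 had 10.9 in overlapping records. HSP90B1 had an sg3 record from 103930444 to 103931143 on chromosome 12 at a fold enrichment of 6.08 and -log10 q of 25.8, and an upstream record with 17.7. The nearest V2 record to HSP90B1 lay 17971 bases away.

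HSPD1 and HSPE1, which encode the mitochondrial chaperonin and its co-chaperonin, start back to back and shared their records, as did the readthrough gene HSPE1-MOB4. The sg3 record ran from 197500156 to 197500932 on chromosome 2, across the printed gap, at a fold enrichment of 6.6 and -log10 q of 58.3. The V2 record ran from 197500324 to 197500796, with 3.52 and 17.6. It covered the HSPE1 start and stopped 50 bases short of HSPD1. A further sg3 record inside HSPD1, with 20.9, had no V2 partner. HSPH1, a heat-inducible exchange factor of the Hsp110 type, was marked inside the gene in both lists, with 23.4 in sg3 and 4.9 in V2, the weakest V2 value of any marked chaperone gene.

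The DNAJA genes encode the J proteins most like bacterial DnaJ. Of the 4, both arms marked 3 (75.0%, against 28.2% of all genes). DNAJA3, the mitochondrial form, had a record only upstream of its start, at a fold enrichment of 10.64 and -log10 q of 61.3 in sg3, and 4.8 and 17.4 in V2. DNAJA1 and DNAJA2, cytosolic partners of Hsp70, had records at and inside the start, those of DNAJA1 also near APTX. DNAJA1 had a -log10 q of 48.4 in sg3 and 23.4 in V2, and DNAJA2 had 23.4 in sg3 and 13.3 in V2. DNAJA4 had a weak record of 5.7 in sg3 and none in V2.

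Of the 12 DNAJB genes 6 were marked in both arms, 2 in sg3 only and 4 in neither. DNAJB11 and DNAJB9, co-chaperones of HSPA5 in the endoplasmic reticulum, were marked in both. DNAJB11 had a fold enrichment of 7.8 and -log10 q of 80.3 in sg3, and 5.29 and 40.3 in V2, in records that also lay within 1 kb of TBCCD1. DNAJB9 had 32.0 in sg3 and 25.9 in V2, in records near THAP5. DNAJB4, a partner of Hsp70, had its strongest record upstream, with 65.3 in sg3 and 22.4 in V2, and this record lay at the start of FUBP1 too. DNAJB6, which suppresses aggregation, had 47.8 in sg3 and 32.1 in V2. DNAJB2, a J protein of neurons that binds ubiquitinated clients, had 38.3 in sg3 and 33.0 in V2.

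DNAJB12, a J protein of the endoplasmic reticulum membrane, was marked in both lists at different sites. The sg3 list had records inside and over the start with 19.1 and 10.8, which V2 did not share, and V2 had only a record 719 bases upstream with 11.0, which sg3 shared with 10.2. DNAJB14, a relative in the same membrane, had the strongest record of the chaperone genes in sg3 only, at a fold enrichment of 7.08 and -log10 q of 27.6 from 99946061 to 99946556 on chromosome 4. The nearest V2 record to DNAJB14 lay 3015 bases away.

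DNAJB1, the heat-inducible partner of Hsp70, was counted in sg3 only on weak records at its outer end, with 6.0 and 5.7. No start is listed at that end, and all its listed starts lie further inside. At the inner start at 14529271 on chromosome 19, sg3 had a record from 14526100 to 14529309 at a fold enrichment of 10.71 and -log10 q of 87.7, and V2 had one from 14526171 to 14529303 with 10.37 and 72.3. Next to it, near the other listed starts, sg3 had a record of 6988 bases with 81.6. V2 had an overlapping record there, from 14518832 to 14519882, at a fold enrichment of 9.57 and -log10 q of 65.7. DNAJB5, which acts in muscle and brain, and DNAJB7, DNAJB8 and DNAJB13, which are testis-enriched, were unmarked at their ends in both lists.

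The 29 DNAJC genes encode J proteins with diverse added domains. Both arms marked 12 (41.4%, against 28.2% of all genes), sg3 only 6 (20.7%, against 18.9%) and neither 11 (37.9%, against 52.3%). DNAJC27, which joins a J domain to a small GTPase domain, led with a record of 2363 bases in sg3, at a fold enrichment of 11.06 and -log10 q of 73.1. V2 had 2 separate records there, of 820 and 488 bases, the stronger with 9.64 and 43.7. DNAJC16 had 58.1 in sg3 and 25.0 in V2, and a further shared record upstream near CASP9. DNAJC2, the ribosome-associated partner of HSPA14, had 55.3 in sg3 and 23 in V2. DNAJC13, an endosomal protein, had 52.0 in sg3 and 20.8 in V2. DNAJC7, which binds both Hsp70 and Hsp90, had 45.9 in sg3 and 14.1 in V2, in records near NKIRAS2. DNAJC11, of the mitochondrial membranes, had 40.6 in sg3 and 16.2 in V2. The other 6 in both lists were lower in sg3. DNAJC21, a J protein of ribosome maturation, had 36.7 in sg3 and 9.8 in V2. DNAJC30, a mitochondrial protein, had 30.6 in sg3 and 13.4 in V2, in records near BUD23. DNAJC25 and its readthrough gene DNAJC25-GNG10 shared a start, with 24.1 in sg3 and 10.1 in V2. DNAJC9, a histone chaperone, had 13.5 in sg3 and 18.9 in V2. The weakest sg3 value among those in both was 7.6, at DNAJC1, where V2 had 9.5.

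The DNAJC genes in sg3 only were DNAJC17, linked to splicing, with a -log10 q of 25.4, DNAJC18 with 19.3, DNAJC10, a reductase of the endoplasmic reticulum, with 14.8, DNAJC3, a co-chaperone there, with 8.6, DNAJC14 with 8.3 and DNAJC4 with 7.2. The records of DNAJC17, DNAJC10 and DNAJC4 also lay within 1 kb of an end of ZFYVE19, PDE1A and NUDT22, in that order. DNAJC17 lay in a stretch rich in records, with 15 in its body in sg3 and 10 in V2, and the nearest V2 record to it lay 3828 bases from the nearer end. DNAJC14 had a shared record at an inner start, with 31.7 in sg3 and 14.7 in V2. For DNAJC10 and DNAJC3 the nearest V2 record lay over 200 kb away, at 243099 and 257993 bases.

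Unmarked at both ends in both lists were the DNAJC5 genes of vesicle release (DNAJC5, DNAJC5B and DNAJC5G), DNAJC6, a clathrin uncoating factor of neurons, DNAJC8, linked to splicing, DNAJC12, a partner of aromatic amino acid hydroxylases, the mitochondrial import proteins DNAJC15 and DNAJC19, DNAJC24 of diphthamide synthesis, DNAJC22 and DNAJC28. DNAJC5B, a testis-enriched form on chromosome 8, nevertheless held a record of 5126 bases in its body in sg3, at a fold enrichment of 20.6 and -log10 q of 92.5. In V2 the strongest record in its body had 7.89 and 37.0. Neither lay within 1 kb of a gene end, so DNAJC5B counts as unmarked.

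**Figure D3:**
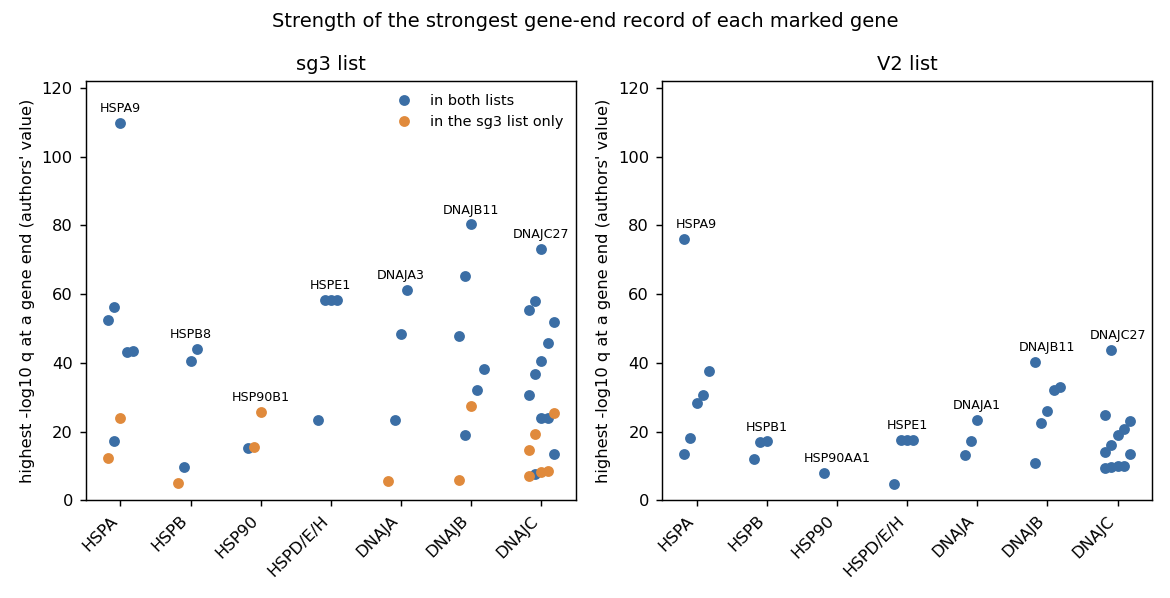
Highest authors' -log10 q of any gene-end record of each marked chaperone gene (1 point per gene), by family, in sg3 on the left and V2 on the right; blue points are genes in both lists and orange points genes in sg3 only, and the highest gene of each family is named. Genes in sg3 only lie at or below 27.6, and HSPA9 is highest in both lists with 109.8 in sg3 and 76.0 in V2.

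Across the families, genes in sg3 only had weak sg3 records. Their highest -log10 q had a median of 13.6 (range 5.25 to 27.6, 14 genes), against 43.5 (7.57 to 110.0, 35 genes) for those in both lists. Over all protein-coding genes the medians were 14.7 and 37.5. All 21 chaperone genes with an sg3 value of 40 or more were in V2 too (100%, interval 83.9 to 100%), against 95.4% of all genes in that band. From 20 to 40 it was 8 of 12 (66.7%, against 68.4% of all genes), from 10 to 20 it was 4 of 8 (50%, against 31.7%), and under 10 it was 2 of 8 (25.0%, against 14.8%). Among the 21 were HSPD1, HSPE1 and HSPE1-MOB4, which share their records. Among the 12 were DNAJC25 and DNAJC25-GNG10, which do so too. The 4 genes in sg3 only with a value of 20 or more were DNAJB14, HSP90B1, DNAJC17 and HSPA5.

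**Figure D4:**
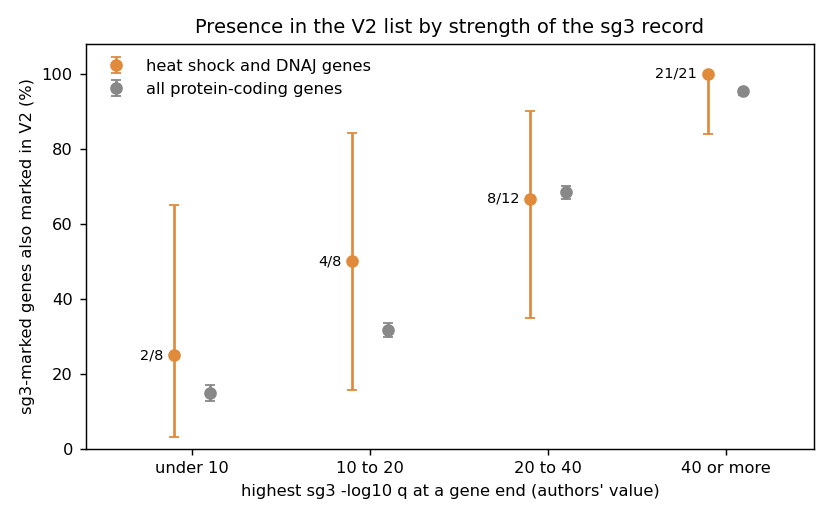
Share (%) of sg3-marked genes that were also marked in V2, in bands of the highest sg3 -log10 q at a gene end, for chaperone genes (orange, with counts) and all protein-coding genes (grey); bars are 95% Clopper-Pearson intervals, which cover counting error only. The share climbs with the strength of the sg3 record in both, to 21 of 21 chaperone genes at 40 or more, and the intervals of the 2 sets overlap in each band.

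By compartment, 5 of 8 listed genes of the endoplasmic reticulum and 0 of 8 listed mitochondrial genes were in sg3 only. With a fold enrichment of at least 4 the order turned, to 3 of 8 for the endoplasmic reticulum and 4 of 8 for mitochondria. Without that threshold, all 8 listed members of the endoplasmic reticulum were marked in sg3, and V2 marked 3 of them, DNAJB9, DNAJB11 and DNAJC1. The other 5, HSPA5, HSP90B1, HSPA13, DNAJC3 and DNAJC10, were in sg3 only, which is 62.5% (24.5 to 91.5%), against 18.9% of all protein-coding genes. Their sg3 -log10 q values were 24.1, 25.8, 12.5, 8.6 and 14.8, all in the bands below 40, where at most 68.4% of genes as a whole were in V2 too. The list does not hold DNAJB12, which was in both lists, and DNAJB14, which was in sg3 only. With them, 6 of 10 were in sg3 only. The mitochondrial list was not widened in this way. Of the 8 mitochondrial members sg3 and V2 marked the same 6, namely HSPA9, HSPD1, HSPE1, DNAJA3, DNAJC11 and DNAJC30, and neither marked DNAJC15 and DNAJC19. HSPD1 and HSPE1 share 1 site, so these are 5 sites. Outside the chaperone genes, both compartments had genes in sg3 only. They were HYOU1, an exchange factor for HSPA5 in the endoplasmic reticulum (-log10 q 15.9), and in mitochondria TRAP1, the mitochondrial Hsp90 (22.5), and HSCB, a J protein of iron-sulphur cluster assembly (30.0). SEC63, a J protein of the translocon, was in both lists (34.6 in sg3, 14.4 in V2), and SIL1, another exchange factor for HSPA5, and CLPB, a mitochondrial disaggregase, were in neither. The lists were set with results of these data known, and the difference between the compartments was not tested.

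Of the 15 members listed as targets of heat shock factor, sg3 marked 14 (93.3%, against 47.2% of all protein-coding genes) and V2 marked 12 (80.0%, against 28.7%). Those in both lists were HSPA1B, HSPA4, HSPA4L, HSPA8, HSPB1, HSPD1, HSPE1, HSPH1, HSP90AA1, DNAJA1, DNAJB4 and DNAJB6. HSPA1A was in neither. HSP90AB1 was in sg3 only at its outer start and DNAJB1 at its outer end, while both lists had records at listed starts inside each of these genes. At the inner listed start of HSP90AA1, by contrast, only sg3 had records within 1 kb. The list does not hold HSPA6, a heat-inducible Hsp70 that was in neither list, and with it sg3 marked 14 of 16 and V2 marked 12 of 16. With a fold enrichment of at least 4, sg3 marked 13 of the 15 and V2 marked 8. With the summit within 1 kb, sg3 marked 13 and V2 marked 11. HSPD1 and HSPE1 share their records, so they are not separate sites. Of 11 listed members with a restricted tissue range, sg3 marked 2 (HSPB2 and HSPB3, 18.2%) and V2 marked 1 (HSPB3, 9.09%). These shares stand against 47.2% and 28.7% of all genes. The list does not hold DNAJB2, which was in both lists, or HSPA2, which had records of both lists near its inner start. Its member DNAJC5B had records in its body but none at its ends. Among 54 other genes of the pathway, sg3 marked 42 (77.8%, against 47.2% of all genes) and V2 marked 26 (48.1%, against 28.7%). None was in V2 only, against 0.501% of all genes. HSF1, the master factor of the response, had a -log10 q of 49.2 in sg3 and 35.4 in V2, and HSF2 had 68.3 in sg3 and 28.5 in V2.

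Of those 54, 16 were in sg3 only (29.6%, against 18.9% of all genes), led by HSPBAP1, a binding partner of HSPB1 (-log10 q 46.2), TOMM34, a mitochondrial import co-chaperone (40), HSCB (30.0), STIP1, the adaptor between Hsp70 and Hsp90 (28.4), PFDN1, a prefoldin subunit (26.3), and ST13, an Hsp70 cofactor (25.1). Unmarked in both lists were 12. Among them were the Hsp90 cochaperones AHSA1 and FKBP4, the exchange factor SIL1, the crystallins CRYAA and CRYAB, the chaperonin subunits CCT3 and CCT7, the prefoldin subunits PFDN6 and VBP1, and HSF5 and CLPB.

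Heat shock elements were in more chaperone promoters than in promoters as a whole, and marked and unmarked genes both held them. In windows from 250 bases before to 50 bases after the listed start, 14 of 66 chaperone genes had GAANNTTC or TTCNNGAA (21.2%), against 11.4% of 15812 protein-coding genes. Each gene had a single window, at the listed start nearest its outer start, and its other listed starts were not searched. The form with 3 inverted units was in 4, DNAJA1, DNAJB6, HSPA6 and HSPA8, which is 6.06%, against 0.373% of all genes. An element was found in 8 of 33 chaperone genes in both lists, 0 of 13 in sg3 only and 6 of 20 in neither, and over all genes in 9.75%, 10.4% and 12.8% of these classes. HSPA1A and HSPA1L, both in neither, have overlapping windows, and the same element was counted for each. The classes rest on the outer ends. DNAJB1, in sg3 only, and HSPA2, in neither, had their windows at inner starts where both lists had a record within 1 kb. HSPA8 had elements beginning 230, 225, 55 and 50 bases before its listed start, DNAJB6 at 131 and 126, HSPA1A at 106 and HSPA1B at 105. The ER stress element was in 2 of 66 chaperone promoters, HSPA5 and HSP90B1, and in 18 of 15812 (0.114%) of all. A CCAAT box on either strand, which is part of that element, was in 6 of 7 endoplasmic reticulum members with a sequence (85.7%), against 36.4% of all genes. The searches for the ER stress element and the CCAAT box were added after values were seen.

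Marked chaperone genes had promoter windows richer in GC and CpG than unmarked ones. The median GC content of these windows was 65.0% in chaperone genes in both lists, 64.7% in those in sg3 only and 60.7% in those in neither, with medians of 27, 24 and 14.5 CpG dinucleotides. Over all protein-coding genes the same classes had 66.0%, 64.3% and 59.0%, with 27, 25 and 14 CpG dinucleotides. The part of base composition in the calls was not tested.

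At the border of the 1 kb window, a DNAJB11 record in sg3 lay just inside at 939 bases (-log10 q 25.1), and its V2 partner lay just outside at 1010 bases (12.8), while both lists had another record over that start. The DNAJC14 record shared by both lists lay outside at 1283 bases in sg3 (31.7) and 1307 bases in V2 (14.7), and the inner HSP90AB1 records lay outside at 1057 bases in sg3 (28.7) and 1145 bases in V2 (10.9). With these inside, DNAJC14 and HSP90AB1 would have been in both lists.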

How the data were processed

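H3K9la ChIP-seq was done in KYSE30 cells in the arms sg3 and V2, with 1 ChIP and 1 input library each. Per the submitters' processing notes, the build was hg38 and the tools named were MACS2 2.2.9.1, Bowtie2 2.5.1, SAMtools 1.18, Trim Galore 0.6.10 and FastQC 0.12.1. The deposited data are 1 narrowPeak list per arm, of which that of V2 is attached to its input sample. The fold enrichment, a ratio, the -log10 p, the -log10 q and the integer score of each record are the authors' values. The smallest -log10 q was 2.02 in sg3 and 2.01 in V2. The labels state neither the MACS2 settings and control, nor how multi-mapping reads were handled, nor read depth.

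Gene positions and promoter sequences were taken from RefSeq tables of GRCh38.p14. The gene table has no strand, and the promoter table gave it for 15812 of 19970 genes and 66 of 73 members. A gene was marked where a record lay within 1 kb of either outer end, and records were shared where they overlapped by at least 1 base. DNAJB3, a pseudogene in the table, was left out. All genes of the other pathway list except 2, GRPEL1 and GRPEL2, were found in the table, so these 2 were not examined. Shares have exact Clopper-Pearson 95% intervals. The matching of records to genes was tested on simulated records. With 1 library per arm no test was made. Members and lists were chosen with earlier results of these data known. Of the DNAJ genes, those in neither list were named, and per family up to 6 in sg3 only and 6 in both by sg3 -log10 q, with all members of the smaller families. The 6 weaker DNAJC genes in both lists, and HSF1, HSF2, HYOU1, TRAP1 and SEC63, were named after their values were seen. Analyses used Python 3.11.15, pandas 2.3.3 and scipy 1.17.1. Counts were repeated under 9 other settings (closing section) and under 4 added after seeing the data, namely any listed start, leaving out HSPA1A, HSPA1B and HSPA1L, and adding DNAJB12 and DNAJB14, or HSPA6, to a list.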

Additional observations from a re-analysis of the deposited data

Results flagged for a closer look

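Both lists held records on alternate contigs of chromosome 6, which carry other copies of the region with the HSPA1 genes, and these records were used in no comparison. There were 635 in sg3 and 405 in V2, more than the 3 counts that a count of 0 allows. They have no gene position in the table used here, so none was assigned to HSPA1A, HSPA1B or HSPA1L, and their part in the absence of a record over HSPA1A was not tested.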

How the results depend on the processing

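Of 64 values of the main counts under other settings, 59 stayed within 1.5 times of those reported. With a -log10 q of at least 10 the count in V2 only was 1 (HSPB3). With a fold enrichment of at least 4, V2 marked 23 chaperone genes and both lists marked 23, since 12 lost their V2 record there. With lists of equal length the count in sg3 only was 8 and in V2 only 1 (DNAJC1), because the weakest sg3 records were dropped. HSPA5, HSP90B1, HSPA13, DNAJB14, DNAJC17 and DNAJC18 were in sg3 only under each setting run, and HSP90AB1, DNAJB1 and DNAJC14 were in both lists when any listed start or a window of 2.5 kb was used. HSPA2 moved from neither list to both when any listed start was used. With a fold enrichment of at least 4, V2 marked 2 mitochondrial members, and 4 of 8 were then in sg3 only, against 3 of 8 of the endoplasmic reticulum. Of 792 values for families and lists, 723 stayed within 1.5 times and 69 did not. No paired analysis was possible because each arm has 1 library and no result comes from a test. Read depth is unknown, so an absent record says only that none was called.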

Other observations

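Some chaperone genes ranked higher in the V2 list than in the sg3 list. DNAJC9, a histone chaperone with a J domain, had a fold enrichment of 4.22 and -log10 q of 13.5 in sg3, and 6.35 and 18.9 in V2, with summits 202 bases in sg3 and 198 bases in V2 downstream of the start. DNAJC1 had 2.77 and 7.6 in sg3, and 3.53 and 9.5 in V2. HSPB3 had 5.52 and 9.7 in sg3, and 7.23 and 12.1 in V2. These values rank records within a list, so they show no change between the arms.

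Other records lay inside chaperone genes, away from their outer ends. HSPA12A, an atypical Hsp70, had a record of 361 bases with a -log10 q of 16.4 in sg3 near an inner start and none in V2. DNAJC12 had records in its body in both lists, the strongest with 14.1 in sg3 and 10.3 in V2. HSP90AA1 had 10 records in its body in sg3 and 6 in V2, the strongest with 74.4 in sg3, from 102097704 to 102098891 on chromosome 14, and 37.1 in V2, from 102096846 to 102097516. DNAJC15 had a record of 396 bases with 12.4 in sg3 and none in V2.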
